A study of Mus musculus with 16 samples.

Results

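The 16 kidneys form a crossing of the Fcgr2b genotype with the Sting genotype, and the values below describe where the loss of STING went with a different change in RNA in mice without Fcgr2b than in mice with it. All 16 arrays of the series, taken from their sample titles, enter the comparison, 4 for each of 4 genotypes. The groups were wild-type mice and Sting-ko mice, both labelled C57BL/6, and Fcgr2b-ko mice and mice lacking both genes, both labelled 129/C57BL/6, all aged 6 months. The last group carries both deletions in the labels (Fcgr2b-ko, Sting-ko) and is called double-deficient here. Kidney RNA of each mouse was labelled with 1 dye (Cy3) and hybridised to an Agilent mouse array with 56605 different probes. Several features limit the groups as a model. The labelled strain differs between the mice with and without Fcgr2b, so the Fcgr2b genotype and the strain cannot be told apart. The study describes the Sting-ko mice as goldenticket (gt), whose allele is a point mutation and acts as a functional null, so its transcript may still be made. The lupus group is named in the labels by its Fcgr2b deletion alone. A main legend of the study for kidney microarray data also names it so. A supplementary legend for kidney microarray data, with 4 mice per group, instead gives Fcgr2b-/- Sting wt/gt. Which Sting genotype the 4 arrays carry was not settled by the labels. If the supplementary legend applies, double-deficient mice are compared with Sting heterozygotes, whereas Sting-ko mice are compared with wild-type mice. The Sting contrasts in mice with and without Fcgr2b would then be unlike.

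STING is an adapter of the endoplasmic reticulum membrane that answers to cyclic GMP-AMP, the messenger which the enzyme cGAS makes on cytosolic DNA. It recruits the kinase TBK1, which phosphorylates the transcription factor IRF3, and it also reaches NF-kB, so that type I interferon, interferon-inducible genes and inflammatory cytokines are made. FcgRIIB, the product of Fcgr2b, is the inhibitory receptor for IgG on B cells and myeloid cells, and mice without it on a susceptible background develop autoantibodies and a lupus-like glomerulonephritis. In such a kidney the filters (glomeruli, with podocytes and capillary endothelium), the space between the tubules and the tubules themselves, above all the proximal tubule that reclaims most of the filtrate, can all change.

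The quantity described is the interaction, which is the log2 difference between double-deficient and Fcgr2b-ko kidneys (the STING effect without Fcgr2b) minus the log2 difference between Sting-ko and wild-type kidneys (the STING effect with Fcgr2b). A negative interaction means that the loss of STING went with a lower level, relative to the effect in mice with Fcgr2b, in the mice without it. A level is a log2 signal on a scale where the 75th percentile of each array is 0, and levels of different genes were not compared. All arrays showed kidney RNA, since probes for Umod, Slc12a1, Slc34a1, Lrp2, Nphs1 and Aqp2 (markers of the thick limb, proximal tubule, podocyte and collecting duct) were well above background on all 16. In whole kidney, fewer cells of a type and less RNA per cell cannot be told apart.

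Promoter sequence is shown for 4 genes whose groups of genes the results turn on, with the letters of short DNA elements at which known factors bind. Each line gives the 150 bases before the start of transcription, 5′ to 3′ on the strand of the gene, from RefSeq for the GRCm38.p6 assembly, and capitals mark every match within these bases to the letters searched on both strands. For Oas1a (chromosome 5, minus strand, chr5:120907526-120907675) and Isg15 (chromosome 4, minus strand, chr4:156200819-156200968) the letters are those of the interferon-stimulated response element (GAAA, any 2 bases, GAAA), and overlapping matches run together. For Egr2 (chromosome 10, plus strand, chr10:67537416-67537565), which has 5 annotated starts of which 1 is shown, they are those of the CArG box of serum response factor. For Trem2 (chromosome 17, plus strand, chr17:48346251-48346400) they are those of the AP-1 site of Fos and Jun proteins, TGANTCA.
Oas1a: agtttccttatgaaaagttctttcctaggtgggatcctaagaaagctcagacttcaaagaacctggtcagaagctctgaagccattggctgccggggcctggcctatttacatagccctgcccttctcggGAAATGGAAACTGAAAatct
Isg15: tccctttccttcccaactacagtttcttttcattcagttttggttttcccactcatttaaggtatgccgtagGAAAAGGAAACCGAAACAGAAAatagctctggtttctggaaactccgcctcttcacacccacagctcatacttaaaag
Egr2: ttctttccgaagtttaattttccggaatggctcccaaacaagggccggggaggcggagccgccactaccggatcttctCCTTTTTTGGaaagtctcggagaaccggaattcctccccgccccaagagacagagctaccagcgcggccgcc
Trem2: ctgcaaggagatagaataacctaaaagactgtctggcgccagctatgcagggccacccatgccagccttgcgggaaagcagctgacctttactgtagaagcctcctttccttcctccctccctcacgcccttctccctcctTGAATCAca
Over windows of 300 bases (250 before to 50 after a start), the interferon element was found in 27 of 60 windows of tested interferon-inducible genes (45%) and in 3.44% of all 32851 windows. The CArG box was found in 5 of 36 windows of the immediate early list, from 2 genes, and in 1.63% of all windows. The AP-1 letters stood in 3 of 18 windows of the macrophage list (16.7%) against 7.81% of all windows. In the other lists searched their share ran from 2.78% (immediate early) to 31.8% (NF-kB targets), so these letters are not particular to macrophage genes. A match of letters is a description of the window and not a site of binding.

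The targeted genes were looked at first. Fcgr2b levels were 2.13, 1.91, 1.60 and 1.14 in the wild-type kidneys, 1.54, 1.05, 0.70 and -0.19 in the Sting-ko kidneys, 0.70, 0.02, 0.06 and 0.19 in the Fcgr2b-ko kidneys and -0.04, 0.50, -0.40 and -0.24 in the double-deficient kidneys. All 8 arrays of Fcgr2b-deficient mice lay below the 4 wild-type arrays, while Sting-ko replicate 4, at -0.19, lay among them. A probe outside the deleted part would still report a transcript, and where the probe lies relative to the deletion was not analysed here. The interaction for Fcgr2b was 0.63 ± 0.49 (log2 ± SE), with an adjusted p of 0.684 in limma. Sting1 levels were 1.03, -1.35, -0.59 and -0.00 in the wild-type kidneys, 1.01, 0.15, -0.10 and 0.11 in the Sting-ko kidneys, 2.69, -0.12, -0.27 and 2.49 in the Fcgr2b-ko kidneys and 0.14, 0.90, -0.09 and -0.57 in the double-deficient kidneys. Only Fcgr2b-ko replicates 1 and 4 stood apart from the others, above every other array, and since the allele is a point mutation the transcript does not check the Sting labels. For Sting1 the interaction was -1.62 ± 0.94, with an adjusted p of 0.661. The same 2 arrays stood apart on many immune, matrix and tubule genes, so medians are also given without them, a choice made after seeing the values. The study reports that interferon-inducible genes were highest in those Fcgr2b-deficient kidneys with more severe disease. Whether these are the same 2 arrays was not settled here, so leaving them out may remove diseased kidneys and not faulty data. It also states that the kidneys were not perfused, so RNA of blood cells may be included.

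No probe passed the test of the interaction. Of 35628 probes tested with limma, 0 had an adjusted p under 0.05 (0%), the smallest adjusted p was 0.661, and 2234 had an unadjusted p under 0.05 (6.27%), of which 1285 were positive (3.61%) and 949 negative (2.66%). Neither STING effect taken alone gave a probe that passed, with 1339 probes at an unadjusted p under 0.05 with Fcgr2b (3.76%) and 645 without it (1.81%), also by limma. By chance alone a share of about 0.05 of probes would fall under that threshold. Both STING effects had fewer than that, and the interaction slightly more. Without Fcgr2b-ko replicates 1 and 4 the interaction had 118 positive and 132 negative probes at that level. Everything that follows therefore describes values and directions, counted at an unadjusted p under 0.05, and no single gene is called changed. Over the 16400 named genes (the brightest tested probe of each), 591 were positive (3.6%) and 570 negative (3.48%) at that level, and the adjusted p of each gene named below was 0.661 in limma unless another is given. Each value after ± is an SE of the fit. Genes named below as members of a list or for their small p had an unadjusted p under 0.05, except Cgas, Irf3, Lyn, Dcaf17 and Snapin.

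Across all genes the 2 STING effects tended to point in opposite directions. They had opposite signs for 11401 of 16400 named genes (69.5%), and across these genes their correlation was -0.52, which is a description over genes that are not independent. The 2 effects share no array. For the genes counted above, opposite signs follow from choosing a large difference between effects centred near 0, so their medians (0.74 with and -0.72 without Fcgr2b for the 570 negative genes, -0.69 and 0.49 for the 591 positive ones) are a description only. The STING effect was the larger in size without Fcgr2b for 296 of the 570 negative genes and for 141 of the 591 positive ones. In the other 450 positive genes the difference between Sting-ko and wild-type kidneys was the larger.

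**Figure D1:**
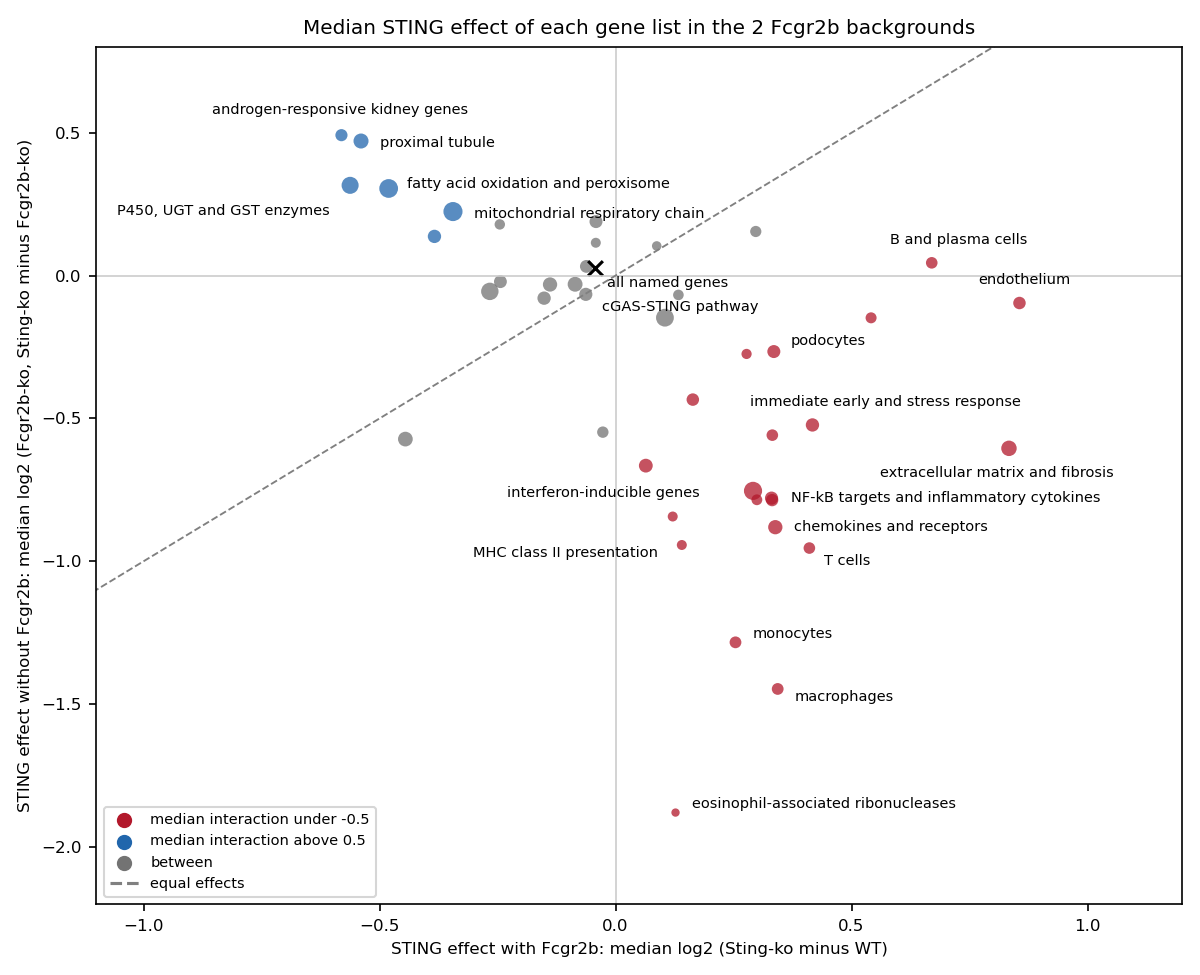
Each point is a gene list (its size grows with the number of genes tested), with its median STING effect in mice with Fcgr2b on the x axis and in mice without Fcgr2b on the y axis, both in log2 units, for 43 lists; the cross is the median of all 16400 named genes. The immune, matrix and endothelial lists lie below the dashed line of equal effects, most of them at the lower right (B and plasma cells lie just above 0 on the y axis, at 0.04, and MHC class I just below 0 on the x axis, at -0.03), the proximal tubule, fatty acid oxidation and respiratory chain lists lie at the upper left, and the cGAS-STING pathway lies by the cross.

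Between 28441 and 35564 probes were well above background per array, and 0 spots were saturated. The arrays came from 2 slides, with 3 Fcgr2b-ko arrays on the first and 1 on the second, 1 and 3 double-deficient arrays, and 2 and 2 of both other groups. The sex of the mice is not in the labels. Y-linked probes were well above background on 6 arrays (2 wild-type, 1 Sting-ko, 1 Fcgr2b-ko and 2 double-deficient) and on none of the other 10. Genes were grouped in 44 lists, of which 1228 different genes were tested and 87 stand in more than 1 list, so the lists are not independent. Scaling each array by its median instead moved the median interaction of all probes from 0.03 to 0.32 and the positive share of probes at an unadjusted p under 0.05 from 57.5% to 77.2%, and the deposited value table gave 83.5%. All lists with a median beyond 0.5 in size kept its sign under 4 other scalings and backgrounds, and the directions below hold in that sense. The labels number the mice, and the first part of the number, whose meaning they do not give, is shared by wild-type replicates 3 and 4, by Fcgr2b-ko replicate 3 and double-deficient replicate 4, and by Fcgr2b-ko replicate 4 and double-deficient replicate 3. With that number as a random block (correlation 0.827) the interaction had 1673 positive and 1213 negative probes at an unadjusted p under 0.05, and the STING effects had 795 with and 3611 without Fcgr2b. The p-values measure the spread between these samples, which may not be independent.

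The genes of the STING pathway itself showed no common direction. Of 30 tested members, 16 had a negative interaction (46.7% of all named genes did), 2 were negative and 1 positive at an unadjusted p under 0.05, and the median was -0.04 beside 0.05 for all named genes. That median turned positive under median scaling of the arrays. Cgas, the sensor, had an interaction of -1.62 ± 0.94, with a STING effect of 0.60 with Fcgr2b and -1.02 without it. Tbk1, the kinase, went the other way at 1.17 ± 0.51, and Irf3, its target, stood at 0.08 ± 0.36 (adjusted p = 0.948). The negative members were Samhd1, a dNTPase that limits reverse transcription, at -1.40 ± 0.55 and Trex1, the exonuclease that removes cytosolic DNA, at -1.13 ± 0.45. Lyn, a Src family kinase of B cells and myeloid cells, had an interaction of -0.99 ± 0.65 (adjusted p = 0.663). Cgas, Tbk1, Irf3 and Lyn were chosen after their values were seen.

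Interferon-inducible genes had a lower median without STING in the Fcgr2b-deficient kidneys and a somewhat higher one in kidneys with Fcgr2b. With Fcgr2b the groups overlapped. Relative to the wild-type mean, list medians ran from -0.76 to 0.94 on wild-type arrays. On Sting-ko arrays they were 1.15 for replicate 1 and at most 0.11 for the others. For this STING effect 0 members had an unadjusted p under 0.05 in limma. Of 66 tested, 63 had a negative interaction (46.7% of all named genes did), and 10 were negative and 0 positive at an unadjusted p under 0.05. The 2 STING effects had opposite signs for 45 of the 66, a share close to that of all named genes (69.5%). Of these, 44 were higher in Sting-ko than in wild-type kidneys and lower in double-deficient than in Fcgr2b-ko kidneys. The median interaction was -0.99, made of 0.29 with Fcgr2b and -0.75 without it, and it was -0.06 without Fcgr2b-ko replicates 1 and 4. Negative members numbered 4 to 24 when 1 array was left out and 0 without both of those arrays. Oas2, a synthetase of the 2-5A messenger that activates RNase L, had levels of -0.59, -3.98, -2.55 and -1.53 in the wild-type kidneys, 0.07, -1.60, -1.23 and -0.59 in the Sting-ko kidneys, 2.56, -1.65, -1.20 and 0.73 in the Fcgr2b-ko kidneys and -2.07, -2.03, -0.93 and -2.13 in the double-deficient kidneys. Fcgr2b-ko replicates 1 and 4 were the highest 2 arrays and wild-type replicate 2 the lowest, and the groups overlapped in both backgrounds. Its interaction was -3.22 ± 1.17. Irf7, the factor that amplifies the interferon response, had levels of 3.47, 2.29, 2.71 and 3.36 in the wild-type kidneys, 4.11, 2.70, 3.23 and 3.05 in the Sting-ko kidneys, 5.29, 3.50, 2.86 and 5.03 in the Fcgr2b-ko kidneys and 2.77, 2.46, 3.44 and 2.32 in the double-deficient kidneys. Here too Fcgr2b-ko replicates 1 and 4 were the highest, and the other 2 Fcgr2b-ko arrays lay close to the wild-type ones. The interaction for Irf7 was -1.74 ± 0.71. Oas1a and Isg15, whose promoters are shown above, stood at -2.45 ± 0.85 and -1.68 ± 0.72, and Isg15, a ubiquitin-like protein, was named for its promoter after its value was seen. Of the 10 interferon-inducible genes counted, 8 have a promoter window and 3 of those (Ifitm3, Isg15 and Oas1a) hold the interferon element. In the list of interferon receptors and STATs, 3 of 26 were negative and 0 positive, with Socs3, a feedback inhibitor of cytokine receptors, at -2.57 ± 0.99.

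Immediate early and stress genes, which are switched on within minutes by growth factors, cytokines or stress, had the largest share of counted members of any list with all 16 arrays. That share rested on few arrays, since 0 of 31 members were negative at that level without Fcgr2b-ko replicates 1 and 4 and 1 on the 10 arrays without Y-linked signal. Of 31 tested, 13 were negative at an unadjusted p under 0.05 and 0 positive, and 26 had a negative sign. The median interaction was -1.17 (0.42 with and -0.52 without Fcgr2b), and it was -0.52 without Fcgr2b-ko replicates 1 and 4. Egr2, a zinc finger factor, had levels of -3.47, -6.69, -5.21 and -3.41 in the wild-type kidneys, -2.26, -2.99, -3.71 and -3.23 in the Sting-ko kidneys, 1.51, -3.36, -1.75 and 0.35 in the Fcgr2b-ko kidneys and -3.47, -2.72, -2.82 and -3.19 in the double-deficient kidneys. The wild-type arrays spread widely, with replicate 2 at the bottom of all 16 and 2 of the 4 not well above background, Fcgr2b-ko replicates 1 and 4 at the top, and the double-deficient arrays close together. Its interaction was -3.89 ± 1.25, and for Fos, the partner of Jun in AP-1, it was -2.68 ± 1.07. Nr4a1, a nuclear receptor of non-classical monocytes and of early responses, stood at -1.79 ± 0.75 and Klf2, a factor of endothelium under flow that was named after its value was seen, at -1.62 ± 0.65. The other counted members were Jun, Junb, Egr1, Ier2, Klf4, Dusp2, Btg2, Gadd45b and Rhob.

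Genes of myeloid cells had lower levels without STING in the Fcgr2b-deficient kidneys, by more than the difference seen with Fcgr2b. In the macrophage list 6 of 22 were negative at an unadjusted p under 0.05, 20 had a negative sign, and the median interaction was -1.73, with a median STING effect of 0.34 with and -1.45 without Fcgr2b. Leaving out Fcgr2b-ko replicates 1 and 4 changed the median interaction to -0.53 and the negative members to 2. Trem2, a lipid receptor of macrophages in injured tissue, had levels of -2.41, -3.92, -4.41 and -3.05 in the wild-type kidneys, -1.71, -2.27, -2.81 and -2.28 in the Sting-ko kidneys, 2.62, -1.28, -1.18 and 1.68 in the Fcgr2b-ko kidneys and -2.13, -0.79, -2.50 and -1.94 in the double-deficient kidneys. The Sting-ko and double-deficient arrays together ran from -2.81 to -0.79, below Fcgr2b-ko replicates 1 and 4 and above all wild-type arrays but replicate 1, and Fcgr2b-ko replicates 2 and 3 lay among them. Its interaction was -3.48 ± 1.07, and 1 wild-type array was not well above background. Cd68, a lysosomal protein of macrophages, had levels of 0.57, -0.82, -0.78 and -0.06 in the wild-type kidneys, 0.67, 0.04, 0.23 and 0.06 in the Sting-ko kidneys, 2.76, 0.99, 1.0 and 3.40 in the Fcgr2b-ko kidneys and 0.37, 0.65, 0.43 and 0.24 in the double-deficient kidneys, so that all 4 Fcgr2b-ko arrays lay above all 4 double-deficient ones. For Cd68 the interaction was -2.14 ± 0.68.

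Other immune lists pointed the same way with all arrays, whereas without Fcgr2b-ko replicates 1 and 4 their medians ran from -0.79 (eosinophil-associated ribonucleases) to 0.06 (cytotoxic and NK cells). Negative members numbered 4 of 22 for monocytes (median -1.68), 4 of 37 for chemokines and their receptors (median -1.48), 5 of 25 for NF-kB targets and inflammatory cytokines (median -1.31), 3 of 30 for complement (median -1.11) and 3 of 13 for MHC class II presentation (median -0.92), with 0 positive in each. Named members were Ccl4, a chemokine for monocytes and T cells, at -2.33 ± 1.04, Cfp, the complement activator properdin, at -2.86 ± 1.13, and C1qa, which macrophages make, at -1.81 ± 0.82. Cd74, the invariant chain of MHC class II, stood at -1.71 ± 0.70 and Syk, the kinase downstream of activating Fc receptors, at -2.23 ± 0.83. For T cells the median was -1.24 and 19 of 21 members were negative in sign, but 0 reached an unadjusted p under 0.05, as was so for the 21 genes of B and plasma cells (median -0.58) and the 14 of neutrophils (median -0.58). Cytotoxic and NK cells, dendritic cells, Fc gamma receptors, and MHC class I with the immunoproteasome each had 1 negative member and medians from -1.15 to -0.36. That is 4.76% to 7.69% of their members, near the 3.48% of all named genes, so these counts do not set the lists apart. Eosinophil-associated ribonucleases had a median of -2.01 over 6 genes, which share much of their sequence so that probes may report more than 1 of them, with Ear2 at -2.22 ± 0.97. A probe needed only 4 arrays above background, so it could be tested through Fcgr2b-ko arrays alone, where this list was high. With only probes above background on all 16 arrays its median was -0.50. Under that filter the medians of monocytes and of B and plasma cells were -1.25 and -0.12.

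**Figure D2:**
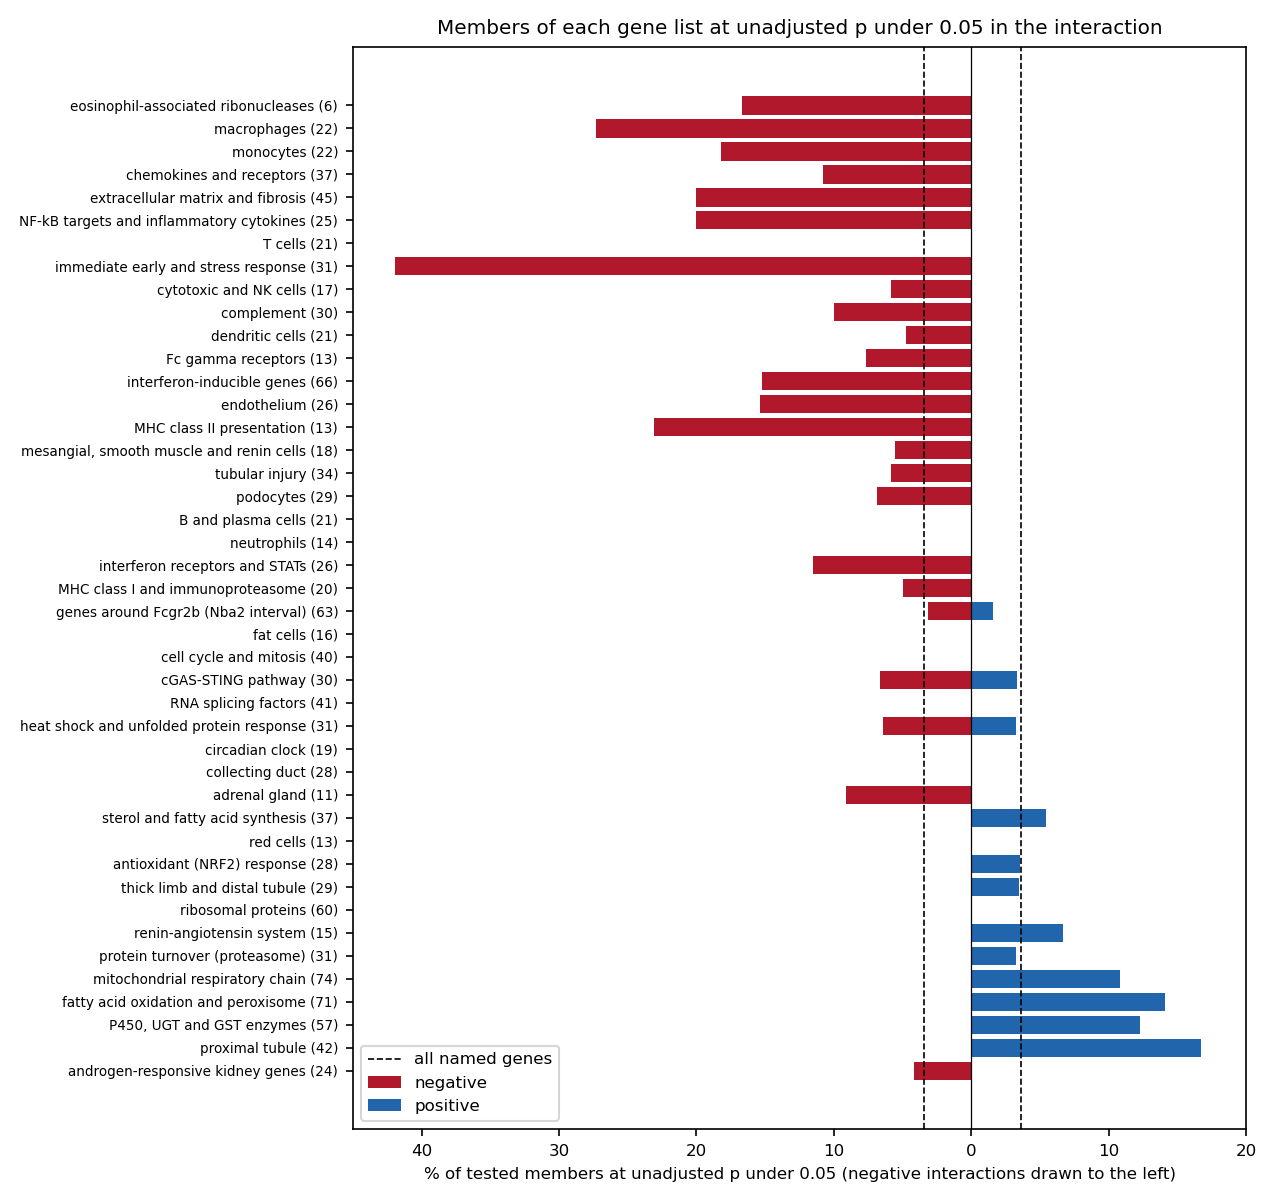
Bars give the percentage of tested members of each list (their number in parentheses) at an unadjusted p under 0.05 in the interaction, negative to the left and positive to the right, and dashed lines give the same over all named genes (3.48% and 3.6%). The immediate early list reaches 41.9% to the left and the proximal tubule list 16.7% to the right, and no list with a median interaction beyond 0.5 in size has members counted on both sides.

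Matrix genes were higher in Sting-ko than in wild-type kidneys and lower in double-deficient than in Fcgr2b-ko kidneys. Among 45 genes of extracellular matrix and fibrosis, 9 were negative at an unadjusted p under 0.05, 42 had a negative sign, and 40 were higher in Sting-ko than in wild-type kidneys and lower in double-deficient than in Fcgr2b-ko kidneys, with medians of 0.83 and -0.60. The 2 STING effects had opposite signs for 41 of the 45, and for 69.5% of all named genes. The median interaction was -1.35, and -0.31 without the 2 arrays, where 1 member was negative at that level. Col1a1, a chain of type I collagen, had levels of -0.28, -1.47, -1.21 and -0.17 in the wild-type kidneys, 1.29, -0.58, 0.74 and 0.90 in the Sting-ko kidneys, 3.99, -1.64, -0.31 and 2.20 in the Fcgr2b-ko kidneys and -1.13, 0.02, -0.38 and -1.26 in the double-deficient kidneys. Fcgr2b-ko replicates 1 and 4 were the highest 2 arrays and replicate 2 the lowest of all 16, and the groups overlapped in both backgrounds. The interaction was -3.12 ± 1.26 for Col1a1 and -2.46 ± 0.94 for Col5a1, a chain of type V collagen. Pi16, a marker of fibroblasts around vessels, was among the genes with the smallest p of all, with levels of -0.21, -1.39, -0.75 and -0.26 in the wild-type kidneys, 0.48, 0.38, 0.41 and 1.43 in the Sting-ko kidneys, 1.95, 0.25, 0.95 and 1.69 in the Fcgr2b-ko kidneys and 0.39, 0.11, 1.05 and 0.42 in the double-deficient kidneys. The Sting-ko arrays all lay above the wild-type ones, and its interaction was -2.05 ± 0.55.

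Endothelial genes had a median STING effect of 0.86 with Fcgr2b, the highest of the 44 lists, and -0.10 without it. Of 26 tested, 4 were negative at an unadjusted p under 0.05 (Eng, Esam, Cldn5 and Nos3) and 23 had a negative sign. The median interaction was -0.96 with all arrays and -0.49 without Fcgr2b-ko replicates 1 and 4, with 1 negative member left. Esam, an adhesion molecule of endothelial junctions, had levels of 1.55, 0.62, 1.48 and 1.47 in the wild-type kidneys, 2.19, 1.77, 1.98 and 2.60 in the Sting-ko kidneys, 1.75, 1.78, 1.29 and 1.98 in the Fcgr2b-ko kidneys and 1.43, 1.06, 1.65 and 1.38 in the double-deficient kidneys. All Sting-ko arrays were above all wild-type ones, whereas Fcgr2b-ko and double-deficient arrays overlapped. Esam gave an interaction of -1.17 ± 0.38 and Nos3, the endothelial nitric oxide synthase, one of -1.22 ± 0.45. The podocyte list had 2 negative members of 29 and a median of -0.66, with Efnb1, an ephrin of the slit diaphragm, at -1.17 ± 0.48. Mesangial, smooth muscle and renin cells had 1 negative member of 18 (median -0.72) and tubular injury genes 2 of 34 (median -0.68). The podocyte, mesangial and injury counts are 6.9%, 5.56% and 5.88% of members, near the 3.48% of all named genes. Fat cell markers, which a piece of perirenal fat would bring, were high on wild-type replicate 1, Sting-ko replicate 1 and Fcgr2b-ko replicate 1 (list medians 2.53, 1.45 and 2.11 relative to the wild-type mean, against -1.43 to 0.63 on the other 13). None of the 16 fat cell genes was counted, and their part in the matrix and endothelial values was not tested.

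Genes of the proximal tubule and of its metabolism took the opposite direction. Among 42 proximal tubule genes 7 were positive and 0 negative at an unadjusted p under 0.05, 40 had a positive sign (53.3% of all named genes did), and the median interaction was 1.03, from -0.54 with and 0.47 without Fcgr2b, and 0.29 with 1 positive member when Fcgr2b-ko replicates 1 and 4 were left out. Slc6a19, the transporter that takes up neutral amino acids, had levels of 2.99, 3.47, 3.48 and 3.87 in the wild-type kidneys, 2.24, 3.30, 2.23 and 1.07 in the Sting-ko kidneys, 0.72, 3.26, 3.49 and 2.65 in the Fcgr2b-ko kidneys and 3.29, 3.30, 3.78 and 3.56 in the double-deficient kidneys. Low arrays were Fcgr2b-ko replicate 1 and Sting-ko replicate 4, the double-deficient arrays stood with the wild-type ones, and groups overlapped in both backgrounds. Its interaction was 2.19 ± 0.75. Slc17a1, a phosphate and urate transporter, had the largest value of the counted members at 3.08 ± 1.31, with Sting-ko replicate 4 far below all other arrays at -1.40. Agxt2, a mitochondrial aminotransferase, stood at 1.52 ± 0.62.

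Mitochondrial and peroxisomal genes had the same direction as those of the tubule. Fatty acid oxidation and peroxisome genes had 10 positive members of 71 and a median of 0.68, respiratory chain genes 8 of 74 and 0.58, and the P450, UGT and GST enzymes of detoxification 7 of 57 and 0.83, with 0 negative members in each. Without the 2 Fcgr2b-ko arrays these medians were 0.29, 0.18 and 0.47, and 0 members of the 3 lists were counted. In the respiratory chain list 72 of 74 genes were lower in Sting-ko than in wild-type kidneys and higher in double-deficient than in Fcgr2b-ko kidneys, with medians of -0.34 and 0.22. Opposite signs of the 2 effects, in either order, were found for 69.5% of all named genes. Etfdh, which passes electrons from fatty acid oxidation to ubiquinone, had levels of 5.20, 5.48, 4.77 and 4.81 in the wild-type kidneys, 4.48, 4.81, 4.16 and 2.88 in the Sting-ko kidneys, 3.67, 4.99, 5.0 and 4.36 in the Fcgr2b-ko kidneys and 4.99, 4.89, 5.03 and 5.06 in the double-deficient kidneys. The 4 double-deficient arrays, from 4.89 to 5.06, lay among the wild-type ones, while Sting-ko and Fcgr2b-ko arrays reached lower. For Etfdh the interaction was 1.47 ± 0.54. Sdhd, an anchor subunit of complex II, had levels of 6.99, 6.71, 6.46 and 6.43 in the wild-type kidneys, 6.23, 6.27, 5.87 and 4.94 in the Sting-ko kidneys, 5.43, 6.66, 6.35 and 5.95 in the Fcgr2b-ko kidneys and 6.52, 7.02, 6.26 and 6.30 in the double-deficient kidneys. All Sting-ko arrays were below all wild-type ones, and Fcgr2b-ko overlapped with double-deficient arrays. Its interaction was 1.25 ± 0.47, and Cox6b1, a subunit of complex IV, gave 1.27 ± 0.53. Scp2, a peroxisomal thiolase and sterol carrier, stood at 1.39 ± 0.59 and Ugt3a1, a glycosyltransferase, at 2.09 ± 0.82. Proteasome genes had 1 positive member of 31 (Psmb7, a catalytic subunit, at 1.56 ± 0.66) and a median of 0.50, with 30 of 31 positive in sign. That count is 3.23% of the list, beside 3.6% of all named genes.

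**Figure D3:**
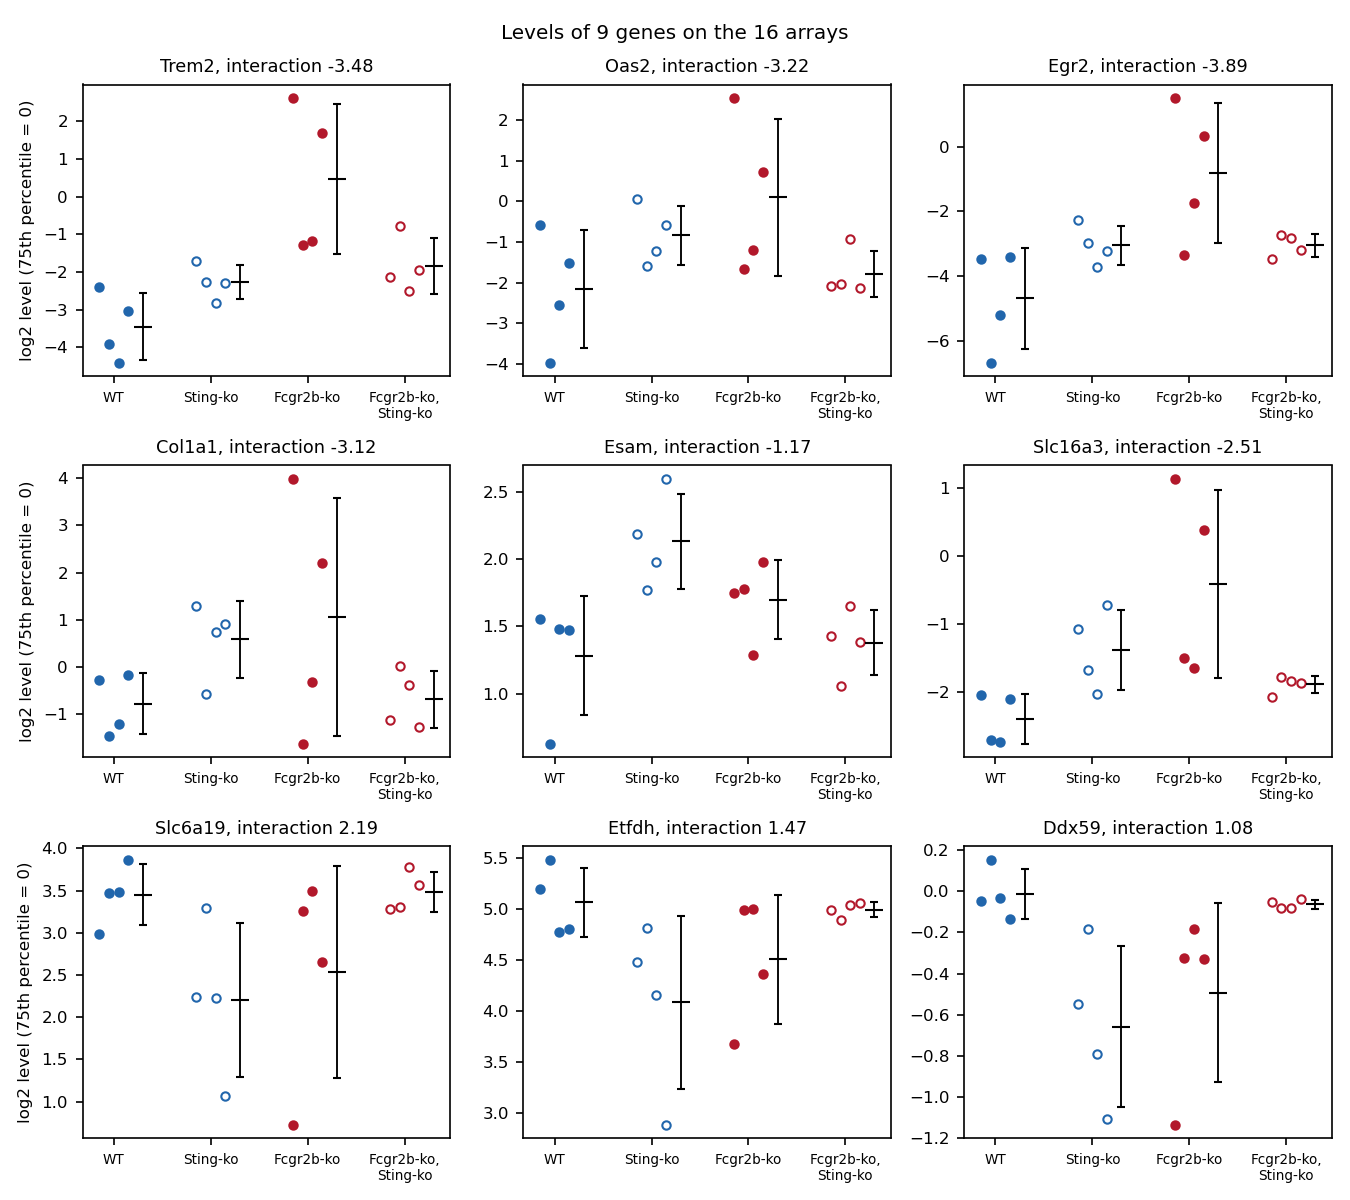
Levels of 9 genes on the 16 arrays, in log2 units with the 75th percentile of each array at 0, by genotype; dots are arrays in replicate order, and the bar beside them is the mean with its SD (4 arrays). In the panels with a negative interaction Fcgr2b-ko replicates 1 and 4 lie high for Trem2, Oas2, Egr2, Col1a1 and Slc16a3, and in those with a positive one Sting-ko replicate 4 and Fcgr2b-ko replicate 1 lie low.

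Lists without a clear direction were those of the later nephron and of general cell functions. The collecting duct, RNA splicing, circadian clock, red cell, fat cell, ribosomal protein and cell cycle lists had 0 counted members. Heat shock genes split, with 2 negative and 1 positive of 31, the former led by Hspb1, a small heat shock protein, at -1.41 ± 0.51. The thick limb and distal tubule had 1 positive of 29 (Cldn10), antioxidant genes 1 of 28 (Nqo1), the renin-angiotensin system 1 of 15 (Enpep), and sterol and fatty acid synthesis 2 of 37 (Nsdhl and Sc5d). Adrenal genes had 1 negative of 11 (Scarb1). The 5 sex chromosome genes had a median of 3.23 and 0 counted members. Androgen-responsive kidney genes had a median of 1.36 with 1 negative and 0 positive members of 24, and the 2 medians became 0.10 and 0.30 with the Y-linked signal as a covariate.

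Full reversals, in which the arrays of the 2 Sting genotypes did not overlap in either Fcgr2b background and pointed in opposite ways, were found for 6 of 16400 named genes (0.0366%), and non-overlap in both backgrounds with the same direction for 0. The arrays of the 2 Sting genotypes did not overlap for 386 genes in mice with Fcgr2b (2.35%) and for 150 in mice without it (0.915%). Non-overlap of groups of this size has a p of 0.0286 in the exact Mann-Whitney test, so chance alone would give it for about that share of genes. Both shares were below this, so non-overlap was no more frequent than chance would give. The number of full reversals expected by chance was not computed. The 6 are therefore described by their values only and not taken as an excess. Slc16a3, the lactate exporter of glycolytic cells, had levels of -2.05, -2.71, -2.74 and -2.11 in the wild-type kidneys, -1.08, -1.69, -2.03 and -0.72 in the Sting-ko kidneys, 1.14, -1.50, -1.65 and 0.38 in the Fcgr2b-ko kidneys and -2.08, -1.79, -1.84 and -1.87 in the double-deficient kidneys. The lowest Sting-ko array and the highest wild-type array were close, at -2.03 and -2.05, and all double-deficient arrays lay below all Fcgr2b-ko ones. Its interaction was -2.51 ± 0.73. Pou2f2, a transcription factor of B and myeloid cells, followed the same course at -1.98 ± 0.51, with 1 wild-type and 2 Sting-ko arrays well above background. Ddx59, an RNA helicase, went the other way with levels of -0.05, 0.15, -0.03 and -0.13 in the wild-type kidneys, -0.55, -0.18, -0.79 and -1.11 in the Sting-ko kidneys, -1.14, -0.32, -0.18 and -0.33 in the Fcgr2b-ko kidneys and -0.05, -0.08, -0.08 and -0.04 in the double-deficient kidneys. The double-deficient arrays lay together near 0 and the Sting-ko arrays all lay below the wild-type ones, for an interaction of 1.08 ± 0.35. Dnaaf4, a factor for assembly of ciliary dyneins, stood at 0.83 ± 0.30, and Dcaf17 and Snapin, the other two, had small effects of 0.46 and 0.35. A second tested probe of Dcaf17 gave -0.03.

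Genes with the smallest p outside these groups were varied. Among 10 negative ones were Myo1f, a myosin of leukocytes (-2.54 ± 0.72), Fut7, the fucosyltransferase that makes selectin ligands (-3.08 ± 0.92, with 12 arrays above background), Adamtsl2, a matrix protein (-1.61 ± 0.44), and Zmynd15, Slc8a2, Agap2, Dact3 and Podxl2. On the positive side were Akr1d1, a steroid reductase of bile acid synthesis (1.98 ± 0.63, although a second probe gave 0.02), Tstd1 (1.35 ± 0.41), Ankrd34b (1.98 ± 0.53), Rwdd3 and Thg1l. For Tstd1 the lower level in Sting-ko than in wild-type kidneys held for all 4 arrays against all 4.

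A large part of the pattern lay with 2 of the 4 Fcgr2b-ko arrays. The interferon, macrophage, matrix and tubule lists all set Fcgr2b-ko replicates 1 and 4 apart from replicates 2 and 3. Relative to the wild-type mean, the macrophage list had medians of 3.47 and 3.23 on Fcgr2b-ko replicates 1 and 4 and of 1.14 and 0.59 on replicates 2 and 3, the matrix list 2.62 and 1.74 against -0.23 and 0.25, and the interferon list 2.03 and 1.30 against -0.01 and -0.34. On the proximal tubule list the first 2 stood at -1.81 and -0.66 and the other 2 at 0.37 and 0.11. Double-deficient arrays ranged only from -0.60 to 0.28 for interferon genes and from -0.21 to 0.13 for the proximal tubule. In mice with Fcgr2b, wild-type replicate 1 and Sting-ko replicate 1 were the highest on the interferon list (0.94 and 1.15) and wild-type replicate 2 the lowest (-0.76). Sting-ko replicates 1 and 4 were low on the proximal tubule list (-0.77 and -0.74). Positive and negative probes at an unadjusted p under 0.05 numbered 615 and 559 without Sting-ko replicate 4 and 629 and 437 without wild-type replicate 2. They numbered 669 and 500 without Fcgr2b-ko replicate 4, against 1285 and 949 with all arrays.

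**Figure D4:**
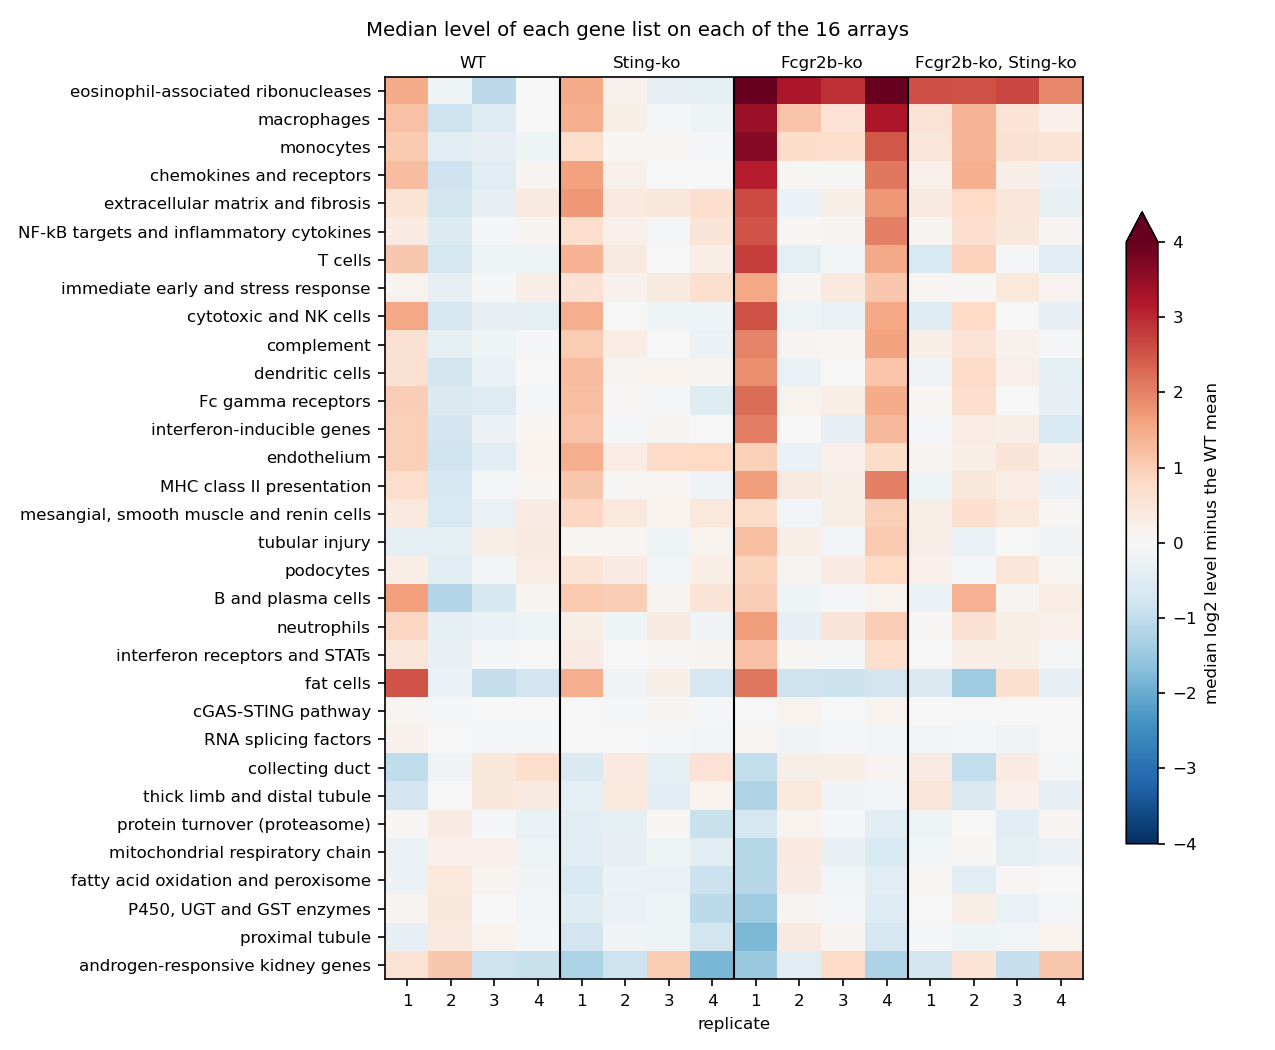
Rows are selected gene lists in the order of their median interaction and columns the 16 arrays by genotype and replicate; colour is the median log2 level of the list minus its wild-type mean, with red higher, blue lower and values above 4 drawn as 4. Fcgr2b-ko replicates 1 and 4 are red on the immune and matrix lists, except that replicate 4 is pale on B and plasma cells (0.14). Both are blue on the proximal tubule list, and the cGAS-STING pathway row stays pale on all arrays.

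Leaving out 1 array at a time kept the sign of the median for the macrophage, interferon, chemokine, matrix, immediate early, endothelial and proximal tubule lists, with the smallest size reached without Fcgr2b-ko replicate 1 in 6 of them and without wild-type replicate 2 for endothelium. Counted members of the macrophage list ranged from 2 to 14 in these fits, of the immediate early list from 5 to 18, and of the respiratory chain list from 1 to 29.

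The slides and the sex-linked signal moved the sizes too. On slide 1 alone, which holds 3 Fcgr2b-ko arrays (replicates 1, 2 and 4) and 1 double-deficient array, the median interaction was -2.56 for macrophages, -1.66 for interferon-inducible genes and 1.08 for the proximal tubule. On slide 2 alone, with 1 Fcgr2b-ko array (replicate 3), the same medians were -0.04, 0.30 and 0.33, so the interferon list turned positive there, as did MHC class II (0.50), MHC class I (0.36), cytotoxic and NK cells (0.33), tubular injury (0.19), complement (0.17), Fc gamma receptors (0.13), chemokines (0.13), B and plasma cells (0.12) and T cells (0.07). Endothelium gave -1.04 and -0.81 and immediate early genes -1.39 and -0.67 on the 2 slides. In each of these fits the lone array of a group was taken to vary like the other groups. With the slide as a block the medians were -1.30 for macrophages, -0.70 for interferon-inducible genes and 0.95 for the proximal tubule. With the Y-linked signal as a covariate over all 16 arrays they were -1.52, -0.84 and 0.74. That fit counted 3 macrophage and 4 interferon genes as negative and 4 proximal tubule genes as positive. Over the 10 arrays without Y-linked signal (2 wild-type, 3 Sting-ko, 3 Fcgr2b-ko and 2 double-deficient) the medians were -2.68, -1.42 and 1.27. This set holds Fcgr2b-ko replicates 1, 2 and 4 but not replicate 3. Over these arrays 10 macrophage genes and 7 interferon genes were negative at an unadjusted p under 0.05, against 6 and 10 with all arrays. The same fit counted 1 immediate early gene, 0 matrix and 0 endothelial genes as negative, against 13, 9 and 4 with all arrays. It counted 2 proximal tubule genes, 1 fatty acid oxidation gene and 1 respiratory chain gene as positive, against 7, 10 and 8. Over all probes it gave 291 positive and 1039 negative ones (21.9% positive), and slide 2 alone gave 475 and 650 (42.2% positive).

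**Figure D5:**
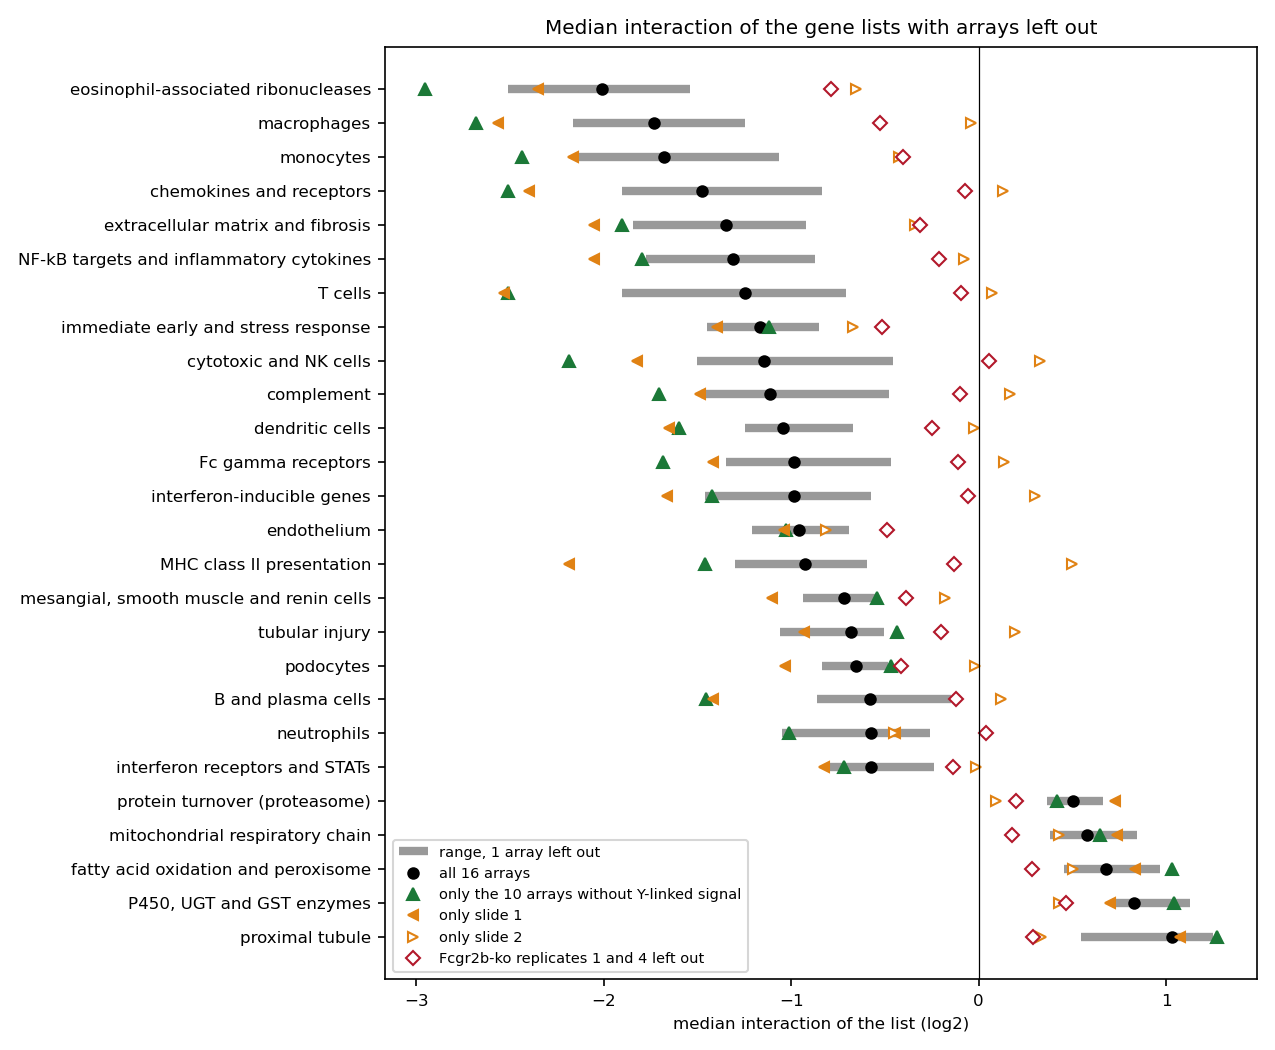
Median interaction (log2) of the lists beyond 0.5 in size, other than those of sex chromosome and androgen-responsive genes, with all 16 arrays (dots), the range when 1 array is left out (bars), and the values over 10 arrays without Y-linked signal, over each slide alone, and without Fcgr2b-ko replicates 1 and 4. Endothelial and immediate early genes stay below 0 throughout, while the interferon list reaches -0.06 without the 2 arrays and 0.30 on slide 2.

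At a gene near Fcgr2b on chromosome 1 the Sting-ko arrays differed among themselves. Ifi202b, an interferon-inducible gene of the Nba2 interval, was not well above background on any wild-type array (-7.48, -6.83, -6.57 and -7.31) and was well above it on all 8 Fcgr2b-deficient arrays (3.27, -0.23, -1.06 and 1.94 for Fcgr2b-ko and -0.52, 0.69, -0.39 and -1.47 for double-deficient mice). Of the 4 Sting-ko arrays, replicates 2 and 4 were above background at -1.91 and -2.78, and replicates 1 and 3 were not, at -7.24 and -6.69. All 4 carry the same strain label. Itln1, an intelectin gene of the same interval, was highest in the same 2 of the Sting-ko arrays, at -5.01 and -4.27 against -7.02 and -6.50, but was not well above background on any of the 4. The interaction fitted for Ifi202b (-3.79 ± 1.56) rests on these 2 arrays and on values at background. Over the 63 tested genes around Fcgr2b the median interaction was -0.33, with 2 negative members and 1 positive. Without Sting-ko replicates 2 and 4, the medians were -2.10 for macrophages, -1.28 for interferon-inducible genes and 1.09 for the proximal tubule.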

How the data were processed

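RNA (100 ng) of 16 kidneys was labelled with Cy3, hybridised to 1-colour Agilent arrays and read with Agilent Feature Extraction 11.0, per the submitters' processing notes. The deposited scanner files hold the intensity of each spot as background-corrected processed signal. The deposited value table holds log2 values whose normalization is not given in the sources used here (column medians from 4.93 to 5.54), and it was used as an alternative only. Its columns that share a replicate number have almost the same sorted values (largest gap 0.00077), so their distributions were made alike within each number. The fit of this table had no term for the replicate number. It had 0 columns that could not be matched to a sample.

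Control spots and spots flagged as outliers (76 to 109 per array) were removed, log2 was taken and spots of 1 probe were averaged. The 75th percentile over the probes of each array was then subtracted. Probes above background on at least 4 of 16 arrays were tested with limma 3.58.1 in R 4.3.3, with 1 mean per genotype and Benjamini-Hochberg adjustment, two-sided. A call needed an adjusted p under 0.05 and a 2-fold change. For a gene with several probes the brightest was used, and 58.3% of probes carry a symbol.

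Genes named were the checks of the labels, the 10 with the smallest p in each direction (2-fold, above background on at least 12 arrays), up to 5 per orientation with opposite effects, and up to 3 per gene list, of which some are not reported here. The lists and the comparison were chosen with earlier results of these data known. Alternatives covered scaling, background correction, the filter, array weights, slide, replicate number, animal label, Y-linked signal and single arrays, and 5 were added after seeing the data. The fits were tested on simulated data. Python 3.11.15, pandas 2.3.3 and scipy 1.17.1 were used. For arrays, the number of arrays limits the precision.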

Additional observations from a re-analysis of the deposited data

Results flagged for a closer look

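In 276 groups of 4 arrays (a gene or a list within a genotype), 22 had an array far from the other 3 (7.97%), and chance flags about 1 in 20 groups. Among genes these were Oas2 on double-deficient replicate 3 (-0.93), Esam on wild-type replicate 2 (0.62), Slc17a1, Ugt3a1 and Pi16 on Sting-ko replicate 4 (-1.40, 3.23 and 1.43) and Ddx59 on Fcgr2b-ko replicate 1 (-1.14), as log2 levels.

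Among lists, as the median relative to the wild-type mean, Sting-ko replicate 1 stood above its group for interferon-inducible genes (1.15), chemokines (1.61), MHC class I (0.38), cytotoxic and NK cells (1.46) and dendritic cells (1.25). Wild-type replicate 1 stood high for cytotoxic and NK cells (1.56), neutrophils (0.84) and the genes around Fcgr2b (0.30). Double-deficient replicate 2 stood high for monocytes (1.36) and low for antioxidant genes (-0.57) and fatty acid oxidation (-0.44), and replicate 4 stood low for eosinophil-associated ribonucleases (1.91). Fcgr2b-ko replicate 1 was low for the collecting duct (-0.995) and high for fat cells (2.11). Sting-ko replicate 2 stood apart for the renin-angiotensin system (0.16) and replicate 3 for sex chromosome genes (2.70).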

How the results depend on the processing

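The interaction had 0 probes past the adjusted threshold under every alternative run, with a smallest adjusted p of 0.0504 on slide 1 alone and 0.0571 with array weights. Counts at an unadjusted p under 0.05 moved more, from 1285 positive and 949 negative probes. They were 1976 and 582 with median scaling, 4624 and 4332 with array weights, 702 and 589 with the Y-linked signal as a covariate, and 1866 and 370 in the deposited value table. Among alternatives chosen after seeing the data, positive and negative probes numbered 424 and 277 on slide 1, 475 and 650 on slide 2, 291 and 1039 on arrays without Y-linked signal, and 118 and 132 without Fcgr2b-ko replicates 1 and 4. Leaving out 1 array gave 510 (without Fcgr2b-ko replicate 1) to 2659 (without Fcgr2b-ko replicate 2) positive and 390 to 2243 negative probes, from the same 2 fits. It gave 11 to 75 probes with full reversal of the STING effect against 10. That count cannot fall when an array is left out, since fewer arrays can overlap, so its rise says nothing on stability.

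For the STING effect with Fcgr2b (0 called, 1339 probes at an unadjusted p under 0.05), the counts were 4400 with array weights, 795 with the animal label as a random block, 703 on arrays without Y-linked signal, 4131 on slide 2, 2359 without Fcgr2b-ko replicates 1 and 4 and 820 without Sting-ko replicates 2 and 4, and leaving out 1 array gave 329 (without Sting-ko replicate 4) to 2899 (without wild-type replicate 1). On slide 1, 45 probes were called. For the STING effect without Fcgr2b (0 called, 645 probes), the counts were 1243 with no filter, 6600 with array weights (774 called), 345 with the slide as a block, 3611 with the animal label as a random block, 411 with only the 8 arrays compared, 176 on slide 1, 140 on slide 2 and 165 without Fcgr2b-ko replicates 1 and 4, and leaving out 1 array gave 187 (without Fcgr2b-ko replicate 4) to 1974 (without Fcgr2b-ko replicate 3). The exact Mann-Whitney test of the methods, unadjusted and at 2-fold, took 127 and 41 probes in the 2 backgrounds, all at the smallest p it allows (0.0286), and 0 after adjustment. The STING effect with Fcgr2b holds no Fcgr2b-ko array, so leaving out Fcgr2b-ko replicates 1 and 4 did not change it (median over all probes 0.0015 in both fits). Only the spread estimated over all genotypes changed in that fit. The cause of the other moves was not tested.

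In the processed signal, replicate numbers did not pair the arrays, since 11 of 24 same-number pairs had a correlation of deviations over 0.1 and 5 of 16 arrays were closest to one of their own number. With the replicate block 1717 probes were positive and 1346 negative, and 2030 were counted for the STING effect with Fcgr2b.

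Single genes that changed sign were Irf3 (-0.21 with quantile normalization, -0.20 in the value table, -0.012 with the slide as a block, -0.048 with the Y-linked covariate, -0.26 without Fcgr2b-ko replicates 1 and 4, -0.35 on slide 2, and -0.13 to 0.24 with 1 array left out) and, on slide 2 alone, Sting1 (0.053), Phyh (-0.019) and Lyn (0.13). With 4 arrays per genotype and a median SE of 0.51 for a gene, small interactions were not detectable. Probes near background carry little information on the size of a difference.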
